A study of Mus musculus with 21 samples.

Results

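The 9 genes described here are Myc, Hras, Kit, Bcl2, Vegfa, Hif1a, Pdgfa, Pdgfrb and Src, which were taken by symbol from a table of 24454 mouse genes because the promoters of their human counterparts are textbook examples of G-quadruplex (G4) DNA in cancer genes. The question was whether loss of the helicase RTEL1, or treatment with the G4 ligand TMPyP4, lowered these genes together. RNA was sequenced in 21 libraries of mouse embryonic fibroblasts (MEFs), 3 in each of 7 groups. In Rtel1f/f MEFs, whose Rtel1 alleles are floxed, cells infected with Ad-GFP (Rtel1f/f +GFP) were set beside cells infected with Ad-Cre, which removes the floxed gene (Rtel1f/f +Cre), and beside Ad-GFP cells that also received 10 μM TMPyP4 for 48 h before RNA collection (Rtel1f/f +GFP +TMPyP4). These 3 groups were collected 96 h after infection. A further pair of groups was Rtel1f/f MEFs transduced with the RTEL1 C1252A/C1255A mutant, infected with Ad-GFP (RTEL1 CA +GFP) or Ad-Cre (RTEL1 CA +Cre). The last pair was Trf1f/f MEFs, floxed for the shelterin gene Terf1, infected with Ad-GFP (Trf1f/f +GFP) or Ad-Cre (Trf1f/f +Cre). Every group had thus received an adenovirus, and each genotype was a single MEF line, so that line and genotype cannot be told apart. The labels call the libraries of a group biological replicates without saying whether they came from separate cultures, so that p-values measure the spread between these libraries only.

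A G-quadruplex is a stack of planar guanine tetrads that a single DNA strand can form when it carries several neighbouring runs of guanine. Promoters are rich in such runs, and ligands that bind the stacked form, TMPyP4 among them, are best known for lowering MYC transcription in cancer cells. RTEL1 is a helicase that unwinds G4 DNA and t-loops during replication.

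The G-rich stretches of the promoters are shown first, because they are what the 9 genes have in common by reputation. Windows from 250 bases before to 50 bases after the start of transcription (RefSeq, GRCm38.p6) were read for 7 of the 9 genes, and Myc and Pdgfrb were not among them. A motif was counted where 4 runs of at least 3 G were separated by loops of 1 to 7 bases, with both strands read and with matches on a strand not overlapping each other. Capitals mark the G runs, and each sequence is written 5′ to 3′ on the strand that carries them. The list is a selection, and further motifs of Pdgfa, Src and Bcl2 are only drawn on the map of the windows.
Vegfa, coding strand, chr17:46032432-46032450: GGGGcGGGtctGGGcGGGG
Vegfa, coding strand of a second start, chr17:46025304-46025328: GGGGacGGGGcGGGGGcaGGGGGGG
Kit, coding strand, chr5:75574889-75574907: GGGcGGGagaaGGGaGGGG
Pdgfa, coding strand, chr5:138994282-138994299: GGGactGGGaaGGGtGGG
Hras, coding strand, chr7:141194005-141194029: GGGcgtGGGGcggagcGGGGcGGGG
Src, coding strand, chr2:157424100-157424123: GGGGGGtGGGGGGctGGGtgcGGG
Bcl2, template strand, chr1:106714293-106714314: GGGGcGGGaggacGGGccGGGG
In the GENCODE M21 annotation of the same build, the first Vegfa motif and those of Kit and Bcl2 lie outside any gene. The second Vegfa motif and that of Src overlap an exon of a transcript of the same gene, and the Hras motif overlaps a UTR exon of Hras. The printed Pdgfa motif lies in an intron, and the Pdgfa motifs not printed lie in an intron or overlap exons. Both Pdgfa windows, chr5:138994232-138994531 and chr5:138994895-138995194, lie inside the span of the gene (chr5:138976014-139000792), away from its outer 5′ end.

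Of the 7 genes with a window, 6 held the motif, against 20.4% of all 27025 genes with a window and 31.9% of the 10394 of them that were also tested here. Hif1a was the exception. Its window held the motif only when loops of up to 12 bases were allowed, and then 7 of 7 genes held it against 30.8% of all genes with a window and 47.4% of those tested. By the G4Hunter score, which weighs how rich a strand is in G runs over C runs, at a threshold of 1.5, 7 of 7 also passed, against 43.8% and 62.5%. The motif was on the coding strand in 5 of the 7 genes and on the template strand in 3. Src held it on both strands of the same window, and Pdgfa on a different strand in each of its 2 windows. The map of the promoter windows shows that all of these motifs lay before the start of transcription. A match of this kind describes letters and not a folded structure.

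**Figure D1:**
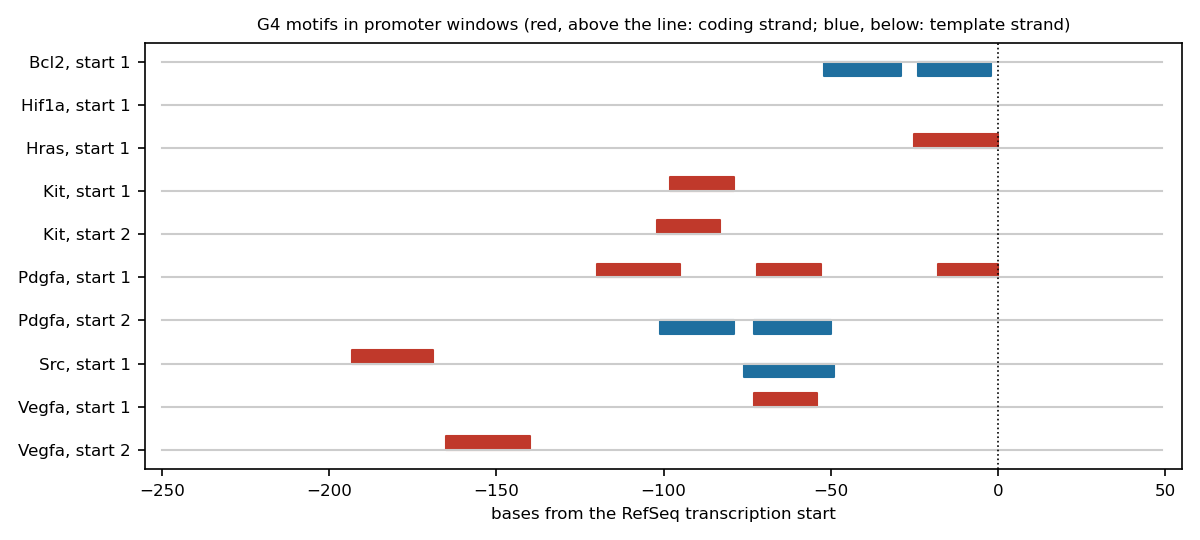
Position of each G4 motif in the promoter windows of 7 genes, in bases from the RefSeq start of transcription (horizontal axis), with 1 line per window and start. Red blocks above a line are on the coding strand and blue blocks below it on the template strand, and the window of Hif1a has no block.

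Depth was between 32069888 and 51938593 counts per library. Levels are given as CPM, which scales the counts of every library to the same total, normalized between libraries by the trimmed mean of M values (TMM). Rtel1 was at 26.8 to 31.9 CPM in Rtel1f/f +Cre and 59.1 to 66.2 CPM in Rtel1f/f +GFP libraries, and Terf1 had 1 to 5 counts in Trf1f/f +Cre libraries against 1204 to 1288 in Trf1f/f +GFP. Of 10 fibroblast markers, 9 were over a mean of 1 CPM in each group of Rtel1f/f origin and 10 in each Trf1f/f group. The exception was Thy1, at a mean of 0.04 to 0.25 CPM in groups of Rtel1f/f origin and 223 to 259 CPM in Trf1f/f groups. The summed level of endothelial, blood, melanocyte and epithelial marker lists never exceeded 6.62 CPM each. That of smooth muscle and pericyte markers was between 516 and 2331 CPM. The Rtel1f/f +GFP libraries were the controls of both main comparisons. RTEL1 CA +GFP cells also keep Rtel1, and held it at 328 to 338 CPM, where reads of the introduced mutant are included. They differed from Rtel1f/f +GFP libraries at 44.7% of 13719 genes tested, which by itself does not show which of these groups is the unusual one. Rtel1f/f +Cre and TMPyP4-treated libraries differed from Rtel1f/f +GFP at 43.0% and 30.0% and from RTEL1 CA +GFP at 7.76% and 17.0%. From each other they differed at 15.2%. The reason for the distance of the Rtel1f/f +GFP libraries was not tested. Results are therefore given against both controls. RTEL1 CA +GFP, the second control, also differs by the introduced mutant and its transduction. In comparisons with it these cannot be told apart from the effect of Cre or TMPyP4.

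Compared per length (TPM, which divides counts by transcript length before scaling each library to the same total), Myc had the highest mean level over the 21 libraries at 97.7 TPM, followed by Hif1a at 90.7, Vegfa at 61.7, Pdgfrb at 59.2, Hras at 52.4, Src at 35.8, Pdgfa at 25.1, Bcl2 at 6.0 and Kit at 0.146 TPM. In the Rtel1f/f +GFP controls alone the order began with Pdgfrb at 112, Hif1a at 86.7 and Myc at 82.0 TPM. Kit stood far below the other 8 genes in these fibroblasts. The widest changes across the 7 groups after Kit belonged to Pdgfrb, whose highest group mean was 3.27 times its lowest in CPM, to Bcl2 at 2.86 times and to Myc at 2.17 times. Hras, Src and Pdgfa varied least, at 1.42, 1.42 and 1.39 times.

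**Figure D2:**
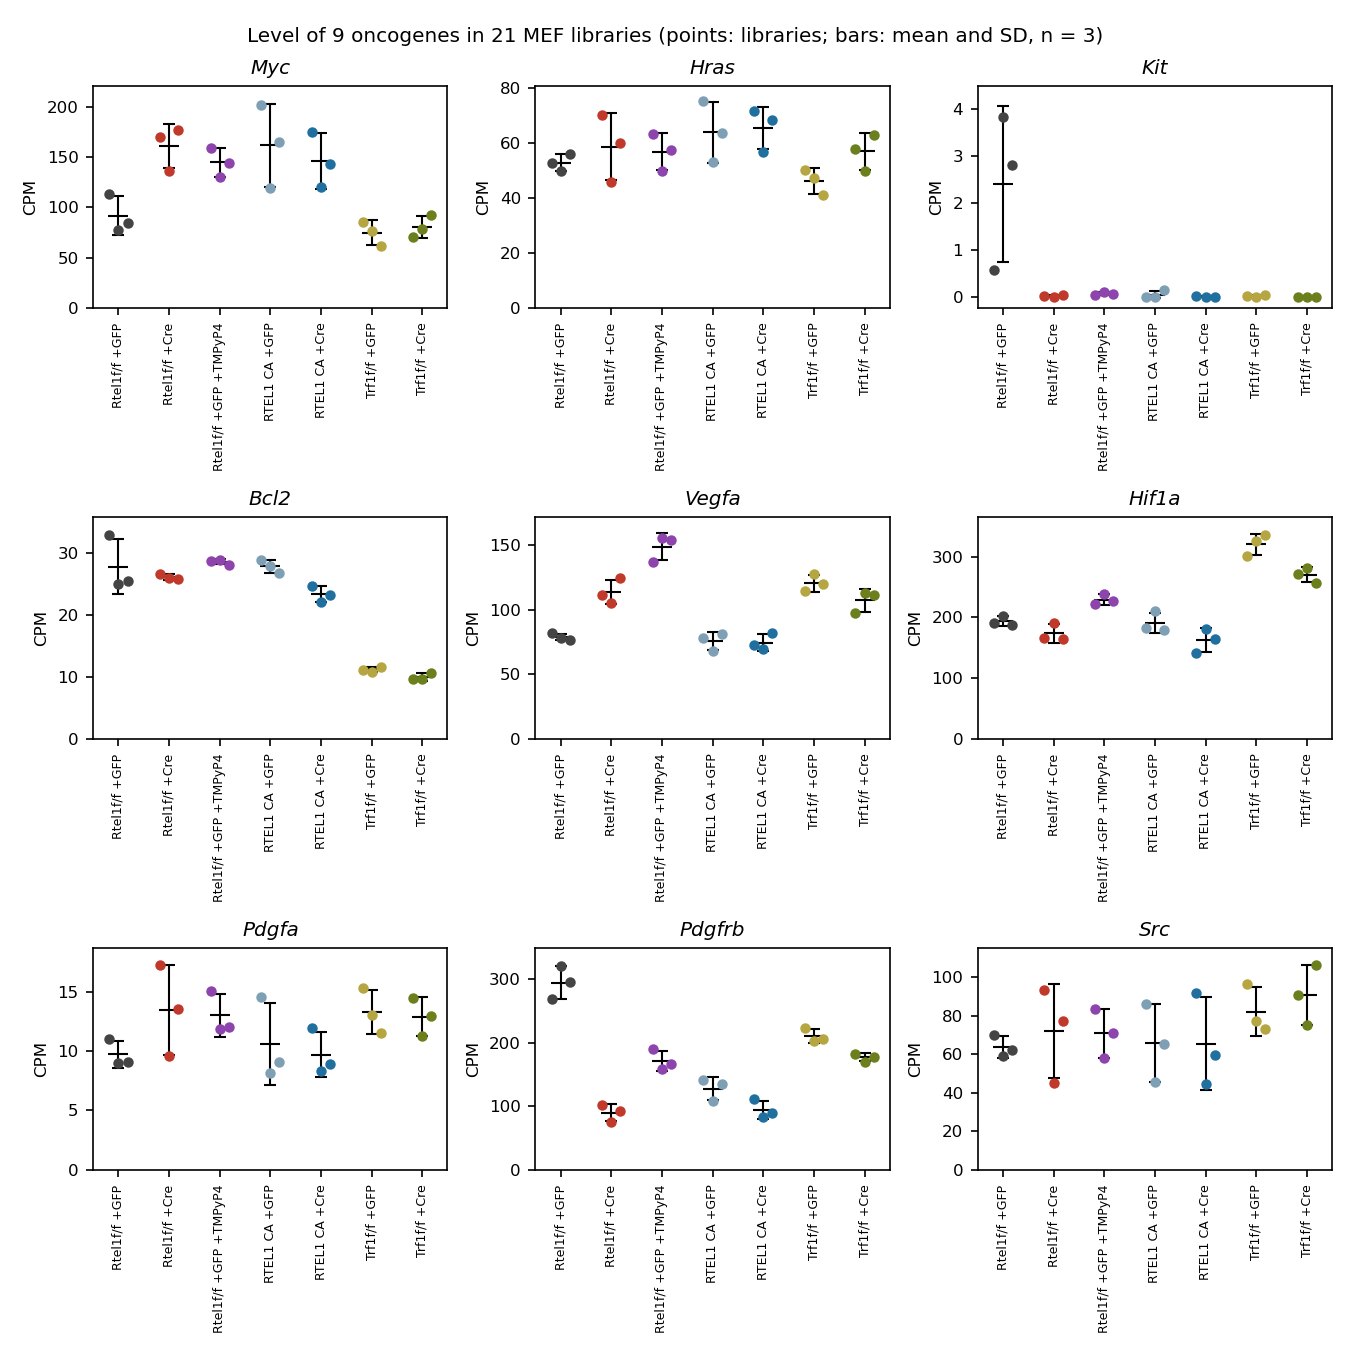
Level of each of the 9 genes in CPM (vertical axis, linear, scaled to each gene) in the 3 libraries of each of 7 groups (points), with the mean and SD of the group (bars); RTEL1 CA stands for C1252A/C1255A. Pdgfrb and Kit were highest in Rtel1f/f +GFP libraries, Vegfa was highest with TMPyP4, and Bcl2 was lowest in both Trf1f/f groups.

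The 9 genes did not fall together after Rtel1 loss. Vegfa and Myc rose, Pdgfrb and Kit fell, and 5 genes did not pass the test (edgeR quasi-likelihood test, all 21 libraries in the fit, Benjamini-Hochberg adjusted p of at most 0.01, here "called"). Of all genes tested 43.0% were called in this comparison, 22.0% higher and 21% lower, beside 4 of the 9 genes. Kit, which is described below, passed the filter on low counts through its level in the controls alone, so that its call was fixed by the filter and is read against no background. Among the other 8 genes 3 were called, a share close to that of genes in general, and their libraries did not overlap between the groups for these 3, as for 61.4% of all genes tested. The median log2 fold change was 0.15 over the 9 genes and 0.16 without Kit, and -0.03 over all genes tested. After TMPyP4 treatment, Vegfa rose, Pdgfrb and Kit fell, and 6 genes were not called. Without Kit this was 2 of 8 genes, where 30.0% of all genes were called, 16.6% higher and 13.4% lower. Libraries did not overlap for 5 of these 8, as for 57.8% of all genes, and the median log2 fold change was 0.15 over the 9 genes, 0.20 without Kit and -0.01 over all genes. The log2 fold change was positive for 7 of 9 genes with TMPyP4 and for 5 of 9 after Rtel1 loss. Both comparisons share their +GFP libraries, so their values are given side by side and are not independent of each other.

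Against RTEL1 CA +GFP cells as the control, Kit had too few counts to be read. Of the other 8 genes, 2 were called in Rtel1f/f +Cre cells, Vegfa higher and Pdgfrb lower. There 7.76% of all genes were called, 3.80% higher and 3.95% lower. With TMPyP4, only Vegfa was called of these 8, where the share of all genes was 17.0%, and 9.94% in the higher direction. With a correction for the GC content of transcripts, 7 genes were called after Rtel1 loss, 4 higher and 3 lower, where 47.8% of all genes were called. That correction gave 5 called genes with TMPyP4, 3 higher and 2 lower, where 34.2% of all genes were called. Both counts include Kit among the lower genes, and its call is read against no background.

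**Figure D3:**
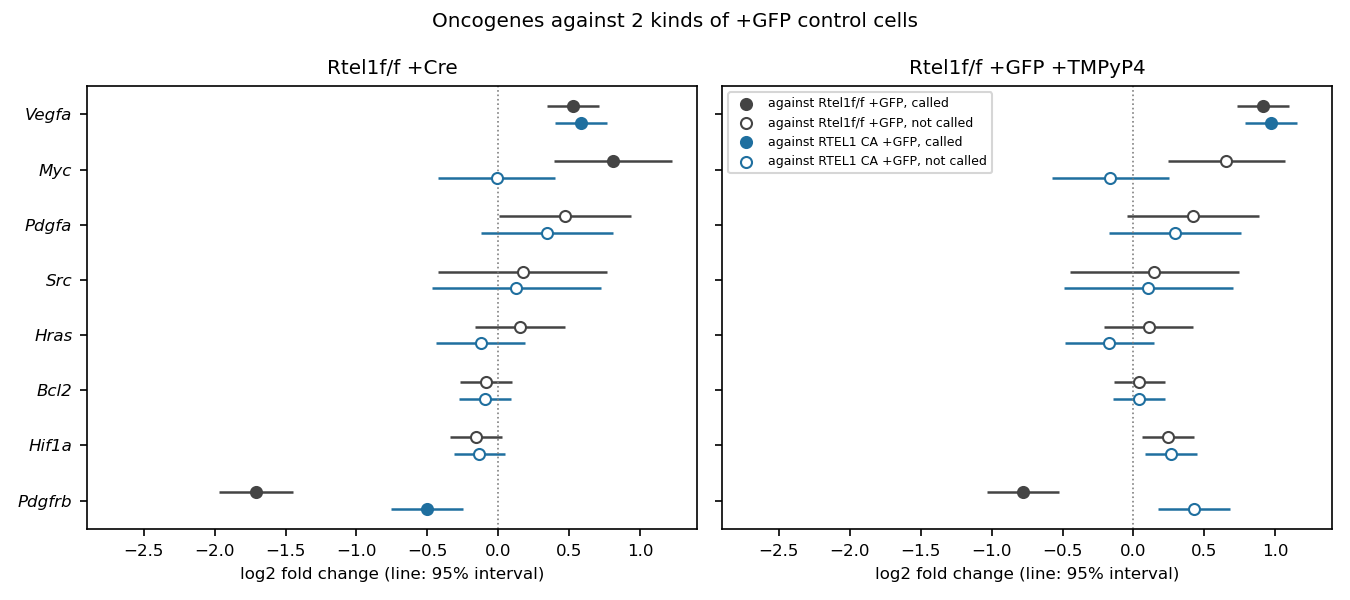
Log2 fold change (horizontal axis, linear) of 8 of the 9 genes in Rtel1f/f +Cre cells (left) and TMPyP4-treated cells (right), against Rtel1f/f +GFP (grey) and RTEL1 CA +GFP (blue) controls, with 95% intervals as lines and filled points for adjusted p of at most 0.01. Vegfa lies above 0 against both controls, Myc moves to about 0 against the second control, and Kit is left out because its counts are near 0 outside Rtel1f/f +GFP cells.

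Vegfa, the secreted growth factor that drives blood vessel formation, rose in both conditions. It was at 81.6, 78.0 and 76.9 CPM in Rtel1f/f +GFP libraries, at 111, 105 and 124 CPM in Rtel1f/f +Cre and at 137, 156 and 154 CPM with TMPyP4. No library of either condition reached down to a control, and the TMPyP4 libraries were also all above those of Rtel1f/f +Cre. The log2 fold change was 0.53 ± 0.086 (SE, n = 3 against 3, edgeR adjusted p = 5.19e-05) after Rtel1 loss and 0.92 ± 0.087 (edgeR adjusted p = 4.06e-07) with TMPyP4. RTEL1 CA +GFP libraries were at 78.2, 68.4 and 81.1 CPM, and against them the log2 fold changes were 0.58 (edgeR adjusted p = 1.23e-04) and 0.97 (edgeR adjusted p = 2.30e-07). Vegfa kept its direction and its call in both comparisons under every alternative run.

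In the other lines Vegfa was not called after Cre. It was at 72.8, 69.2 and 81.7 CPM in RTEL1 CA +Cre cells, a log2 fold change of -0.03 (95% interval -0.21 to 0.16) that leaves these libraries overlapping their +GFP controls. In Trf1f/f cells the +GFP libraries held 115, 128 and 120 CPM and the +Cre libraries 97.3, 113 and 112 CPM (log2 fold change -0.17, 95% interval -0.35 to 0.01). The Cre effect itself differed between lines, by 0.55 ± 0.12 on the log2 scale between the Rtel1f/f and RTEL1 CA lines (SE, edgeR adjusted p = 0.00172, where 25.1% of all genes were called) and by 0.70 ± 0.12 between the Rtel1f/f and Trf1f/f lines (edgeR adjusted p = 1.94e-04, where the share was 30.2%).

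Pdgfa, a ligand of the PDGF receptors that drives growth of mesenchymal cells, was at 11.02, 9.02 and 9.11 CPM in Rtel1f/f +GFP libraries, 17.2, 9.60 and 13.5 CPM in Rtel1f/f +Cre and 15.1, 11.9 and 12.1 CPM with TMPyP4. It was not called, with log2 fold changes of 0.47 (95% interval 0.01 to 0.94, edgeR adjusted p = 0.0801) and 0.42 (95% interval -0.05 to 0.88, edgeR adjusted p = 0.137). Replicate 2 of Rtel1f/f +Cre lay within the range of the controls, while the TMPyP4 libraries were all above them.

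Pdgfrb, the receptor of PDGF that marks mesenchymal cells, showed the largest fall of the 8 genes other than Kit. It was at 269, 320 and 295 CPM in Rtel1f/f +GFP libraries, at 101, 75.9 and 93.5 CPM in Rtel1f/f +Cre and at 190, 159 and 167 CPM with TMPyP4. The 3 groups did not overlap, with TMPyP4 libraries between the other two. The log2 fold change was -1.71 ± 0.12 (SE, n = 3 against 3, edgeR adjusted p = 4.75e-09) after Rtel1 loss and -0.78 ± 0.12 (edgeR adjusted p = 6.27e-05) with TMPyP4.

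The second control changed this picture for the ligand. RTEL1 CA +GFP libraries held Pdgfrb at 141, 108 and 135 CPM, below every TMPyP4 library and above every Rtel1f/f +Cre library. Against them the log2 fold change was -0.50 (edgeR adjusted p = 0.00836) in Rtel1f/f +Cre cells, and with TMPyP4 it turned to 0.42 (edgeR adjusted p = 0.0136). The summed level of 10 fibroblast markers was 20128 to 22242 CPM in Rtel1f/f +GFP libraries, 8440 to 11185 in Rtel1f/f +Cre, 11591 to 15170 with TMPyP4 and 9885 to 13529 in RTEL1 CA +GFP. It was highest in Trf1f/f libraries, at 24506 to 31706 CPM, where Pdgfrb was lower than in Rtel1f/f +GFP. The sum was mostly Fn1, Col1a2 and Col1a1, at means of 6926, 5290.5 and 4757 CPM in Rtel1f/f +GFP. After Rtel1 loss 7 of the 10 were called lower and 2 higher, with S100a4 at a mean of 260 CPM in Rtel1f/f +GFP and 632 CPM in Rtel1f/f +Cre, and with TMPyP4 5 were lower and 0 higher. Pdgfra, the other PDGF receptor, is one of these 10 markers. The summed level of 6 smooth muscle and pericyte markers, a class of cells that also expresses Pdgfrb, was 521 to 596 CPM in Rtel1f/f +GFP, 516 to 600 in Rtel1f/f +Cre, 1231 to 1267 with TMPyP4 and 830 to 907 in RTEL1 CA +GFP libraries. It was mostly Acta2, at means of 439, 516, 1176 and 820 CPM in the same order of groups. Cspg4 was at means of 102, 33.3, 49.8 and 40.7 CPM. Of these 6 markers 1 was called higher and 1 lower after Rtel1 loss, and 2 higher and 0 lower with TMPyP4. The part of these markers in the fall of Pdgfrb was not tested, and a change in the share of cells that express the gene cannot be told apart from a change of RNA per cell in such bulk samples.

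In the other lines edgeR did not call Pdgfrb after Cre. It was at 111, 83.8 and 89.4 CPM in RTEL1 CA +Cre cells (log2 fold change -0.44, 95% interval -0.69 to -0.18, edgeR adjusted p = 0.0598), which overlapped RTEL1 CA +GFP as groups. Replicate numbers pair these libraries, and Pdgfrb was lower with Cre in 3 of 3 pairs, with a log2 fold change of -0.44 under the replicate block (edgeR adjusted p = 0.0122). In Trf1f/f cells the +GFP libraries held 224, 203 and 205 CPM and the +Cre libraries 183, 170 and 178 CPM (log2 fold change -0.25, 95% interval -0.51 to 0.00, edgeR adjusted p = 0.295). DESeq2, and edgeR with the GC correction, called the difference in RTEL1 CA cells. The Cre effect on Pdgfrb differed between the Rtel1f/f and RTEL1 CA lines by -1.27 ± 0.17 on the log2 scale (SE, edgeR adjusted p = 2.18e-05) and between the Rtel1f/f and Trf1f/f lines by -1.46 ± 0.17 (edgeR adjusted p = 3.86e-06).

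Kit, the receptor of stem cell factor that germ cells, mast cells and melanocytes depend on, had 26, 187 and 140 counts in Rtel1f/f +GFP libraries. It had 1, 0 and 1 counts in Rtel1f/f +Cre and 1, 4 and 2 with TMPyP4. Outside these groups it had 0, 0 and 6 counts in RTEL1 CA +GFP, 1, 0 and 0 in RTEL1 CA +Cre, 1, 0 and 1 in Trf1f/f +GFP and 0 in each Trf1f/f +Cre library. Kit RNA was thus measured above a few counts in Rtel1f/f +GFP cells and in no other group, and replicate 1 of that group held far less than the other two. Its fall is given as a description, because the filter on low counts was passed through this group alone.

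Pooled over libraries and corrected for depth, Kit was 147-fold higher in Rtel1f/f +GFP than in Rtel1f/f +Cre cells (353 against 2 counts, 95% interval 40.5 to 1222, counting error only) and 40.4-fold higher than with TMPyP4 (353 against 7 counts, 95% interval 19.4 to 101). It was also 52.1-fold higher than in RTEL1 CA +GFP cells, which express Rtel1 and were given no ligand (95% interval 23.7 to 143). No fold is given against the second control, since those groups lie at or near the limit of 3 counts. The mast cell genes Cpa3 and Fcer1a and the melanocyte genes Dct and Tyr had 0 counts in every Rtel1f/f +GFP library. The summed level of 5 melanocyte markers was 0.534 to 0.946 CPM there, 0.248 to 0.606 in Rtel1f/f +Cre, 0.385 to 0.476 with TMPyP4, 0.251 to 0.388 in RTEL1 CA +GFP and 0.765 to 1.51 in Trf1f/f libraries. It was nearly all Pmel, at a mean of 0.726 CPM in Rtel1f/f +GFP, and was thus higher in Rtel1f/f +GFP than in RTEL1 CA +GFP libraries but highest in Trf1f/f cells, where Kit had at most 1 count. The part of these markers in the level of Kit was not tested.

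Src, the founding member of the non-receptor tyrosine kinases, was at 70.1, 59.0 and 62.4 CPM in Rtel1f/f +GFP libraries, 93.2, 45.3 and 77.1 CPM in Rtel1f/f +Cre and 83.3, 57.9 and 71.1 CPM with TMPyP4. The groups overlapped, and the spread among the +Cre libraries was wider than any difference of means. The log2 fold changes were 0.17 (95% interval -0.43 to 0.77) and 0.15 (95% interval -0.45 to 0.74). Src has the most GC-rich transcript of the 9 genes (59.3%, against a median of 49.7% over tested genes), and with the GC correction it was called higher after Rtel1 loss (log2 fold change 0.58) and with TMPyP4 (0.47).

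Hras, the small GTPase that passes receptor signals to the MAP kinases, was at 52.8, 49.7 and 55.9 CPM in Rtel1f/f +GFP libraries, 70.2, 45.9 and 60.0 CPM in Rtel1f/f +Cre and 63.4, 49.8 and 57.5 CPM with TMPyP4. These groups also overlapped. Its log2 fold changes were 0.15 (95% interval -0.16 to 0.47, edgeR adjusted p = 0.407) and 0.11 (95% interval -0.21 to 0.42, edgeR adjusted p = 0.591), and both turned negative against RTEL1 CA +GFP cells, at -0.13 and -0.17. With the GC correction Hras was called higher after Rtel1 loss (0.32).

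Myc, the transcription factor whose promoter G4 is the best known, was not lowered by either condition. It was at 114, 77.5 and 84.5 CPM in Rtel1f/f +GFP libraries, at 170, 136 and 177 CPM in Rtel1f/f +Cre and at 159, 131 and 144 CPM with TMPyP4. Every library of both conditions was above every control. The log2 fold change was 0.81 ± 0.20 (SE, n = 3 against 3, edgeR adjusted p = 0.00212) after Rtel1 loss and 0.66 ± 0.20 (95% interval 0.24 to 1.07, edgeR adjusted p = 0.0124) with TMPyP4, which just missed the threshold. DESeq2 called the rise with TMPyP4, and so did edgeR without replicate 1 of Rtel1f/f +GFP (log2 fold change 0.84, edgeR adjusted p = 0.00372).

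The rise of Myc was not seen against the second control, whose cells also carry the introduced mutant. RTEL1 CA +GFP libraries had Myc at 201, 119 and 165 CPM, within reach of both conditions, and against them the log2 fold changes were -0.01 (95% interval -0.42 to 0.40) and -0.16 (95% interval -0.57 to 0.25). Myc was itself higher in RTEL1 CA +GFP than in Rtel1f/f +GFP cells (log2 fold change 0.82, edgeR adjusted p = 0.00188). With Cre it was at 175, 120 and 144 CPM in RTEL1 CA cells, and in Trf1f/f cells the level was 85.8, 76.7 and 61.3 CPM before and 70.5, 78.5 and 92.4 CPM after Terf1 loss. The groups overlapped within each of these lines. The Cre effect on Myc was larger in the Rtel1f/f than in the RTEL1 CA line by 0.95 ± 0.28 on the log2 scale (SE, edgeR adjusted p = 0.0117), which was not called. It was called without replicate 1 of Rtel1f/f +GFP (1.14), replicate 2 of Rtel1f/f +Cre (1.04), replicate 1 of RTEL1 CA +Cre (1.11) or replicate 2 of RTEL1 CA +GFP (1.14).

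Hif1a encodes the oxygen-regulated subunit of HIF-1, a factor controlled mainly through the stability of the protein. It was at 191, 203 and 188 CPM in Rtel1f/f +GFP libraries, 166, 191 and 164 CPM in Rtel1f/f +Cre and 222, 239 and 227 CPM with TMPyP4. The TMPyP4 libraries were all above the other two groups, which overlapped. Neither difference from the controls was called, with log2 fold changes of -0.16 (95% interval -0.34 to 0.03, edgeR adjusted p = 0.135) and 0.24 (95% interval 0.06 to 0.42, edgeR adjusted p = 0.03). Hif1a has the lowest transcript GC of the 9 genes (41.3%), and with the GC correction it was called lower after Rtel1 loss (log2 fold change -0.43).

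Bcl2, the inhibitor of mitochondrial apoptosis, moved least of the 9 genes in both main comparisons. It was at 33.0, 25.1 and 25.4 CPM in Rtel1f/f +GFP libraries, 26.7, 26.0 and 25.8 CPM in Rtel1f/f +Cre and 28.8, 29.0 and 28.2 CPM with TMPyP4. The log2 fold changes were -0.09 (95% interval -0.27 to 0.09) and 0.04 (95% interval -0.14 to 0.22), neither of which was called. Its levels separated the lines instead, with 9.60 to 11.7 CPM in the 6 Trf1f/f libraries and 22.2 to 33.0 CPM in the 15 libraries of Rtel1f/f origin. Hif1a was the reverse, at 257 to 335 CPM in Trf1f/f libraries and 142 to 239 CPM in the others. These lines differ in genotype and origin at once.

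Rtel1f/f +Cre and TMPyP4-treated cells were also compared directly. Vegfa (log2 fold change -0.39, edgeR adjusted p = 0.00271), Hif1a (-0.40, edgeR adjusted p = 0.00224) and Pdgfrb (-0.93, edgeR adjusted p = 2.10e-05) were lower in Rtel1f/f +Cre. None of the 8 genes other than Kit was called higher, and Kit had too few counts in both groups to be read. Of all genes tested 15.2% were called and 9.09% were called lower. By edgeR no further gene of these passed at an unadjusted p under 0.05, where 35.7% of all genes did. In a fit of these 2 groups alone only Pdgfrb was called. The call of Vegfa was lost without replicate 1 (log2 fold change -0.37) or 2 (-0.33) of Rtel1f/f +Cre and without replicate 2 (-0.35) or 3 (-0.36) of the TMPyP4 group. That of Hif1a was lost without replicate 1 (-0.37) or 3 (-0.32) of Rtel1f/f +Cre and without replicate 2 of the TMPyP4 group (-0.37).

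In the RTEL1 CA and Trf1f/f lines edgeR called none of the 8 genes other than Kit after Cre, where it called 1.09% and 3.42% of all genes. Kit had too few counts in these groups to be read. At an unadjusted p under 0.05 there were 3 of these 8 in RTEL1 CA cells and 1 of 8 in Trf1f/f cells, each lower with Cre. The shares of all genes were 14.2% and 17.3%. DESeq2 called 1 gene, Pdgfrb, in RTEL1 CA cells and 0 in Trf1f/f cells.

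Genes of the same pathways were counted in lists made by function. Each count stands beside 43.0% of all genes called after Rtel1 loss and 30.0% with TMPyP4, or 7.76% and 17.0% against RTEL1 CA +GFP cells. Other genes with a reported promoter G4 also split, with 2 of 7 called higher and 2 lower in each of both comparisons. The growth factor receptor gene Fgfr2 changed by -1.03 and -0.57 and the haematopoietic factor Myb by -0.99 and -0.84 on the log2 scale, and all of these differences were called. Against RTEL1 CA +GFP cells 1 of the 7 genes was called in each condition, lower, and neither Fgfr2 nor Myb was. With TMPyP4 2 of the 7 were called without replicate 2 or replicate 3 of Rtel1f/f +GFP.

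Targets of Myc, among them genes of ribosome assembly and growth, moved with Myc. After Rtel1 loss 15 of 18 were called higher and 1 lower, with a median log2 fold change of 0.96, where 22.0% of all genes were called higher. With TMPyP4 13 of 18 were higher and 0 lower, with a median of 0.56, where 16.6% of all genes were higher. Tfrc, the transferrin receptor, rose by 1.43 and 0.47 on the log2 scale, Ncl (nucleolin) by 1.42 and 0.94 and Npm1 (nucleophosmin) by 1.37 and 0.95. Against RTEL1 CA +GFP cells edgeR called 0 of 18 after Rtel1 loss, 0 also at an unadjusted p under 0.05 (24.7% of all genes), with a median of -0.03. With TMPyP4 7 of 18 were then called lower and 0 higher, with a median of -0.41, where 7.07% of all genes were lower, and Tfrc was at -1.05 on the log2 scale. After Rtel1 loss the rise of the Myc targets was thus absent against RTEL1 CA +GFP cells. With TMPyP4 it turned to a fall there, while Myc itself was not called. In the RTEL1 CA and Trf1f/f lines, by edgeR, 0 of 18 were called after Cre, and at an unadjusted p under 0.05 there were 0 and 1. The shares of all genes at that p were 14.2% and 17.3%.

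Partners and antagonists of Myc split after Rtel1 loss, with 4 of 10 called higher and 5 lower, and 1 higher and 2 lower with TMPyP4. The antagonists Mxd3 (log2 fold change -1.37), Mxd4 (-1.07) and Mnt (-0.88) were lower after Rtel1 loss, and of these Mxd3 was also called with TMPyP4 (-1.35). None of the 3 was called against RTEL1 CA +GFP cells.

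Among the RAS genes other than Hras, 2 of 5 were called higher and 1 lower after Rtel1 loss and 3 higher and 0 lower with TMPyP4. Rras2 rose by 1.06 and 0.92 on the log2 scale, and Rras fell by 0.47 after Rtel1 loss. By edgeR 0 of 5 were called against RTEL1 CA +GFP cells in either condition, and 2 of 5 in each at an unadjusted p under 0.05. The shares of all genes at that p were 24.7% and 38%. Response genes of the ERK pathway, which lies below the RAS proteins, were called higher at 9 of 14 and lower at 3 after Rtel1 loss, and at 1 and 2 with TMPyP4, or 3 and 2 without replicate 1 of Rtel1f/f +GFP. Spry1, a feedback inhibitor, changed by -2.40 and -0.55 on the log2 scale, and the early response factor Fos by -1.80 and -1.37. The ERK phosphatase Dusp5 rose by 1.83 after Rtel1 loss. Against the second control 0 were higher and 1 lower after Rtel1 loss, and 1 higher and 6 lower with TMPyP4, with a median of -0.39. Of the 3 genes named, Spry1 alone was called there, at -0.75 after Rtel1 loss and at 1.11, the other direction, with TMPyP4.

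Among ligands and receptors next to Kit and the PDGF genes, 3 of the 6 tested were called higher and 1 lower after Rtel1 loss, and 1 higher and 1 lower with TMPyP4, or 0 and 1 without replicate 2 or 3 of Rtel1f/f +GFP. Pdgfra, the receptor of Pdgfa, changed by -0.82 and -1.34 on the log2 scale. Pdgfc, another ligand, rose by 0.68 and 0.61, and Kitl, the ligand of Kit, rose by 0.54 after Rtel1 loss. Against RTEL1 CA +GFP cells the log2 fold change of Pdgfra was 0.79 in Rtel1f/f +Cre and 0.27 with TMPyP4, that of Pdgfc was -0.60 and -0.67, and that of Kitl was -0.29 and -0.59. All 3 thus changed sign with the control, and those of Pdgfra and Kitl were called against the second control in Rtel1f/f +Cre and TMPyP4-treated cells, respectively, and that of Pdgfc in both.

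In the VEGF family 3 of 9 genes were called higher and 3 lower after Rtel1 loss, and 1 higher and 1 lower with TMPyP4. Vegfc, which drives lymphatic vessel growth, rose by 2.22 and 1.15 on the log2 scale, and against RTEL1 CA +GFP cells it was still called, at 1.61 and 0.54. Vegfc therefore rose in both conditions against both controls, as Vegfa did. Vegfb changed by -0.80 and the placental growth factor Pgf by 0.71 after Rtel1 loss, and neither was called with TMPyP4 or against the second control.

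HIF regulators were called at 1 higher and 1 lower of 8 after Rtel1 loss and at 0 higher and 2 lower with TMPyP4. Egln3, a prolyl hydroxylase that marks HIF proteins for decay, rose by 0.71 after Rtel1 loss, and Arnt, the partner of HIF1A, changed by -0.48 and -0.24. Known HIF targets, a group that Vegfa belongs to by function but that was counted without it, were called higher at 4 of 18 and lower at 4 after Rtel1 loss, and at 5 and 3 with TMPyP4. Their medians were -0.02 and 0.03 on the log2 scale, close to those of all genes. Ero1l rose by 0.81 and 1.16 and the glycolytic gene Pgk1 by 0.89 and 0.40, while Ndrg1 changed by -0.87 after Rtel1 loss and by 0.69 with TMPyP4. Ndrg1 was called in the same directions against RTEL1 CA +GFP cells (-0.44 and 1.12), Ero1l was called with TMPyP4 only (0.52), and Pgk1 was not called after Rtel1 loss (0.14) and was called lower with TMPyP4 (-0.35). With TMPyP4 5 of the 18 HIF targets were called without replicate 2 or 3 of Rtel1f/f +GFP or replicate 2 of the TMPyP4 group. Against RTEL1 CA +GFP cells 0 were higher and 2 lower after Rtel1 loss and 3 and 3 with TMPyP4.

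Relatives of Bcl2 and Src formed short lists, in which a single gene can move a count past the share of all genes. That share was 43.0% after Rtel1 loss and 30.0% with TMPyP4. Of the pro-survival genes tested 1 of 3, Bcl2l2, was called, higher by 0.41 after Rtel1 loss and by 0.65 with TMPyP4, and after Rtel1 loss 2 of 3 were called without replicate 1 or 2 of Rtel1f/f +Cre. Of 10 pro-apoptotic genes, 1 was called higher and 2 lower after Rtel1 loss and 2 higher and 2 lower with TMPyP4. Bmf changed by -3.14 and -2.05, Pmaip1 by 0.72 and 0.89 and Bcl2l11 by -0.68 and -0.75 on the log2 scale. None of these 4 genes was called against RTEL1 CA +GFP cells. Among the 7 tested relatives of Src and its regulator Csk, Lck was lower after Rtel1 loss (-1.21), and with TMPyP4 Fyn was higher (0.71). Counts for this list were 0 higher and 1 lower after Rtel1 loss and 2 higher and 1 lower with TMPyP4. Fyn was also higher with TMPyP4 against RTEL1 CA +GFP cells (0.56).

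**Figure D4:**
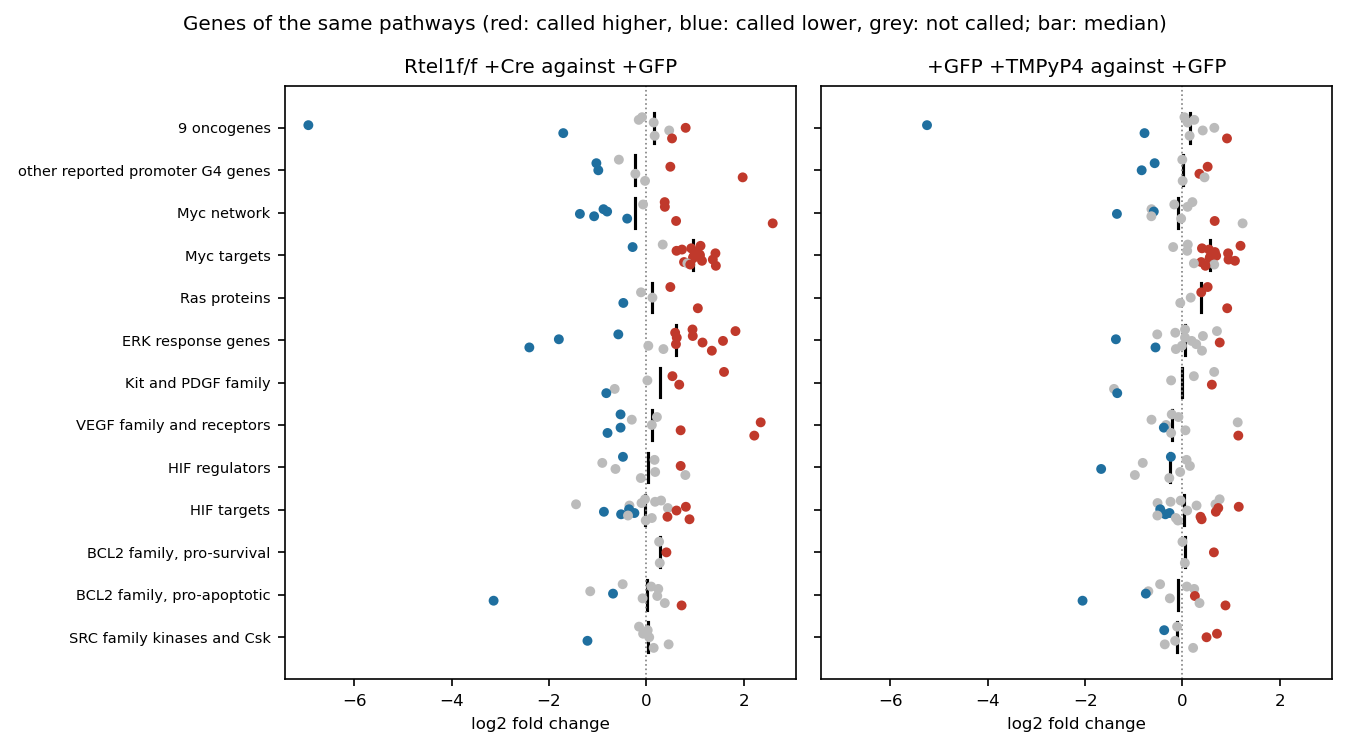
Log2 fold change (horizontal axis, linear) of the 9 genes and of 12 pathway lists (rows) after Rtel1 loss (left) and with TMPyP4 (right), both against Rtel1f/f +GFP cells, 1 point per tested gene. Red points were called higher, blue points lower and grey points not called, and black bars are medians; the Myc targets lie almost wholly to the right of 0 in both panels, which they do not against RTEL1 CA +GFP cells.

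The promoter motif was also set against expression over all tested genes with a window, as a description. After Rtel1 loss 19.3% of 3319 genes with the motif were called higher and 25.1% lower, beside 23.5% and 18.9% of 7075 genes without it. With TMPyP4 the shares were 15.9% and 14.4% with the motif and 16.8% and 12.7% without. Against RTEL1 CA +GFP cells they were 3.89% and 4.82% with the motif and 3.59% and 3.19% without after Rtel1 loss, and 12.1% and 7.11% against 8.58% and 7.45% with TMPyP4. Among the 9 genes, the coding-strand motif printed above was held by Vegfa, which rose, by Kit, which fell, and by Hras, Pdgfa and Src, which were not called.

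Some genes followed a member closely across the 7 group means of log2 CPM, each centred on its own mean. Nearest to Myc were Cct5, a chaperonin subunit, and Xpo5, which exports microRNA precursors, with root mean square differences of 0.05 and 0.06 on the log2 scale. Nearest to Pdgfrb were Arnt2 (0.11) and the collagen gene Col6a1 (0.11), and nearest to Bcl2 were Zfp566 (0.07) and the mismatch repair gene Msh3 (0.08). For Kit the nearest were Col2a1 at 0.62 and Megf6 at 0.73, so that no gene with a mean of at least 5 CPM came close to it. Likeness over 7 means describes these groups only.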

How the data were processed

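Reads were trimmed by the authors with cutadapt 1.9.1, aligned with STAR 2.5.2a and assigned with RSEM 1.3.0 to RefSeq genes of mm10, with strand taken into account. The submitters' processing notes also name DESeq2 1.28.0. The labels give strand-specific single-end reads, and read length and serum differ between the labels and the methods and are not given here. The authors deposited, for each library, an expected count per gene, not normalized, and the TPM of the same genes. The expected counts were all whole numbers already. They were tested with edgeR 4.0.16 (R 4.3.3), which normalized them by TMM and kept 13719 of 24454 genes (filterByExpr), all 9 genes described among them. A quasi-likelihood model with robust dispersion was fitted to the 21 libraries, each group having its own coefficient, with two-sided tests, Benjamini-Hochberg adjustment over all genes tested, and a threshold of 0.01. Intervals are 95%. Log2 CPM used a prior count of 2. TPM served only to compare levels between genes. The total per library, 32069888 to 51938593 counts, sets the precision, and 3 counts were taken as the floor. Errors are SEs of the fit unless named SD.

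The 9 genes, the 12 pathway lists and the tests were chosen with earlier results of these data known. From each list at most 3 genes were named, those with the largest change among genes called after Rtel1 loss or with TMPyP4 at a mean of at least 1 CPM; values of some genes that this rule names are not reported here. The nearest genes were sought, at a mean of at least 5 CPM, for each of the 9 whose group means span at least 1 on the log2 scale. Coordinates are those of GRCm38, the assembly behind mm10.

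Other settings tried were a test by DESeq2 1.42.0, edgeR with the size factors of DESeq2, genes without any filter or with at least 10 counts in each library, a fit of the compared groups alone, a block for replicate number, a threshold of 0.05, a GC correction (loess, span 0.3), each library left out, and RTEL1 CA +GFP as the control. Replicate numbers were checked as pairs by correlating deviations from group means: same-numbered libraries correlated at 0.72, 0.76 and 0.41 between Rtel1f/f +Cre and TMPyP4-treated cells and at 0.86, 0.84 and 0.42 between RTEL1 CA groups, all above the 0.1 required, and not in the other comparisons. In the comparisons of Rtel1f/f +GFP with Rtel1f/f +Cre, TMPyP4-treated and RTEL1 CA +GFP cells the correlations lay between -0.02 and 0.13. The scripts were tested on simulated data, and 0 columns of the table were left unused.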

Additional observations from a re-analysis of the deposited data

Results flagged for a closer look

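The effect of Cre on 2 of the 8 genes other than Kit differed between MEF lines by a test of the difference itself. For Pdgfrb the Cre effect in the Rtel1f/f line minus that in the RTEL1 CA line was -1.27 on the log2 scale (edgeR adjusted p = 2.18e-05), and minus that in the Trf1f/f line it was -1.46 (edgeR adjusted p = 3.86e-06). For Vegfa these differences were 0.55 (edgeR adjusted p = 0.00172) and 0.70 (edgeR adjusted p = 1.94e-04). Each rests in part on the Rtel1f/f +GFP libraries, which differed from RTEL1 CA +GFP libraries at 44.7% of genes tested.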

How the results depend on the processing

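Groups held 3 libraries each, both main comparisons share 3 controls, and Kit could not be compared outside those controls, so its folds there are left out; requiring at least 10 counts in every library removed it. Of 679 recomputed values of single members, 606 kept direction and side of the threshold, 10 lost their call, 39 gained one and 24 changed sign, none of them called after the change; single members called in neither main comparison were recomputed only in those and in the direct one.

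With the GC correction the count of members called became 7 after Rtel1 loss, 5 with TMPyP4, 2 for Cre in RTEL1 CA cells, 1 in Trf1f/f cells, 4 for each difference between lines and 6 between both kinds of +GFP cells; with the block and the GC correction these were 9, 7, 2, 2, 5, 6 and 6, where 55% of all genes were called after Rtel1 loss and 42.7% with TMPyP4. Kit is in these counts after Rtel1 loss, with TMPyP4 and between both kinds of +GFP cells, and is read against no background. With these settings no share of all genes was computed outside the main comparisons. The counts there are therefore not read as a result about the members. RTEL1 CA +GFP as the control gave 2 and 1. With TMPyP4 the replicate block gave 6, Kit among them, where 39.6% of all genes were called. An adjusted p of 0.05 gave 5, again with Kit, and the share of all genes at that threshold is not given here. DESeq2 called 1 in RTEL1 CA cells, and a fit of only the groups compared called 1 between Rtel1f/f +Cre and TMPyP4, where leaving out single libraries gave 1 to 3. In the paired comparisons the block changed no call of the 8 genes other than Kit. Elsewhere numbers are shared only. There the block gave 5 after Rtel1 loss, Kit among them, where 52.6% of all genes were called. Pathway counts were recomputed only in the main comparisons, and some small ones moved by over 1.5 times, as for ERK response genes with TMPyP4 (3, and 6 with the GC correction).

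Signs changed with the RTEL1 CA +GFP control for Myc (-0.0104 after Rtel1 loss, -0.16 with TMPyP4), Hras (-0.13, -0.17) and Pdgfrb (0.42 with TMPyP4), for Bcl2 with TMPyP4 under GC correction (-0.0736, and -0.0653 with the block), and for Src between Rtel1f/f +Cre and TMPyP4 under the block (-0.011). Leaving out single libraries gave ranges through 0: after Rtel1 loss -0.14 to 0.0523 for Bcl2 and -0.0609 to 0.40 for Src; with TMPyP4 -0.0417 to 0.18 for Bcl2; between Rtel1f/f +Cre and TMPyP4 -0.11 to 0.21 for Hras, -0.17 to 0.26 for Pdgfa and -0.21 to 0.28 for Src; for Cre in RTEL1 CA cells -0.33 to 0.0265 for Myc and -0.0984 to 0.0246 for Vegfa; in Trf1f/f cells -0.0141 to 0.22 for Myc; between +GFP cells -0.0868 to 0.0264 for Vegfa. The cause of these shifts was not tested.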

Other observations

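Within several groups the level of Src followed the replicate number. It was 93.2, 45.3 and 77.1 CPM in replicates 1, 2 and 3 of Rtel1f/f +Cre, 83.3, 57.9 and 71.1 with TMPyP4, 86.2, 45.6 and 65.4 in RTEL1 CA +GFP and 91.9, 44.7 and 59.6 in RTEL1 CA +Cre. Replicate 1 was the highest and replicate 2 the lowest in each of these 4 groups, and also in Rtel1f/f +GFP, at 70.1, 59.0 and 62.4 CPM. That order did not hold in Trf1f/f +GFP (96.3, 77.1 and 72.8 CPM) or Trf1f/f +Cre (90.5, 74.9 and 106 CPM). Pdgfa had the order of Src in every group except Trf1f/f +GFP. It shared the pattern in RTEL1 CA cells, at 14.5, 8.11 and 9.11 CPM in RTEL1 CA +GFP and 11.9, 8.30 and 8.92 CPM in RTEL1 CA +Cre. So did Hras, at 75.3, 53.1 and 63.6 CPM in RTEL1 CA +GFP, and Pdgfrb, at 141, 108 and 135 CPM there. The correlation of same-numbered libraries given above was taken over 11840 genes, so that a shared replicate pattern is not particular to these members.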
